A study of Mus musculus with 3 samples.

Results

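Runx2, Sp7, Atf4, Twist1, Creb3l1 and Zfp521 are 6 transcription factors known for their part in building or restraining the osteoblast, the cell that lays down bone matrix. They were taken by symbol from the 26970 genes measured in the mandibular condyles of mice with and without Dspp, the gene of dentin sialophosphoprotein, a matrix protein best known from dentin. All 6 were found, and all 6 passed the limit set for comparing genes, an average of 1 FPKM or more across the libraries, as did 13026 genes. FPKM is the number of sequenced fragments per kilobase of exon, scaled to the size of the library, so that a longer gene or a deeper library does not by itself give a higher value.

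The 3 groups were WT mice, Dspp+/- mice with 1 deleted allele and Dspp-/- mice with both alleles deleted. All were 4 months old and on a C57BL/6 background, and the Dspp+/- mice came from crosses of Dspp-/- with WT mice. The deletion is present in every cell of the animal, so no group separates a loss in bone from a loss in teeth or elsewhere. Condyles were dissected with cartilage and subchondral bone still joined, and their poly(A) RNA was sequenced in pairs of reads. Tissue of 3 animals was pooled for WT and for Dspp+/-, while the number of Dspp-/- animals is not given in the sources used here. Each genotype therefore has 1 library and no replicate. No p-value is given, every difference below is a difference between single libraries, and the intervals cover the counting of fragments only. The level of Dspp was not analysed here and could not be used to check the genotypes.

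RUNX2 and SP7, also called osterix, are the factors without which osteoblasts do not form, with RUNX2 acting before SP7 in the lineage. ATF4 supports amino acid supply and late osteoblast function and is itself controlled largely at translation. TWIST1 holds RUNX2 back in immature cells, ZFP521 also restrains RUNX2 activity, and CREB3L1, also called OASIS, is a factor of the endoplasmic reticulum that is cut free to switch on the type I collagen gene Col1a1.

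Depth was 20241576 fragments in the WT library, 23613621 in Dspp+/- and 22253158 in Dspp-/-. Transcripts of bone matrix were present in all 3 libraries. Col1a1, the main protein chain of bone matrix, stood at 6675, 1719 and 3610 FPKM across WT, Dspp+/- and Dspp-/-. Bglap, which encodes osteocalcin, stood at 1353, 386 and 778. Per the study, the condylar cartilage holds type I collagen too, so Col1a1 alone does not show bone cells. Mitochondrial transcripts took 25.0% of the summed FPKM in the WT library, 36.9% in Dspp+/- and 37.3% in Dspp-/-, and marrow markers differed as well, with values given beside the cell markers. FPKM does not adjust for such differences in composition.

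In WT, Atf4 was the most abundant of the factors at 74.3 FPKM, followed by Sp7 at 65.4, Creb3l1 at 51.9, Twist1 at 35.7, Runx2 at 17.7 and Zfp521 at 12.0. The order was the same in both mutant libraries. Creb3l1 and Twist1 lay closest together there, at 17.1 and 16.1 FPKM in Dspp+/- and at 21.4 and 20.2 in Dspp-/-, and their 95% counting intervals overlapped in both mutant libraries but not in WT. Among the 13026 genes compared, Atf4 ranked 428th from the top in WT, 379th in Dspp+/- and 473rd in Dspp-/-. Sp7 ranked 486th in WT but 1621st in Dspp+/- and 990th in Dspp-/-, and Creb3l1 ranked 641st, 2345th and 1725th.

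**Figure D1:**
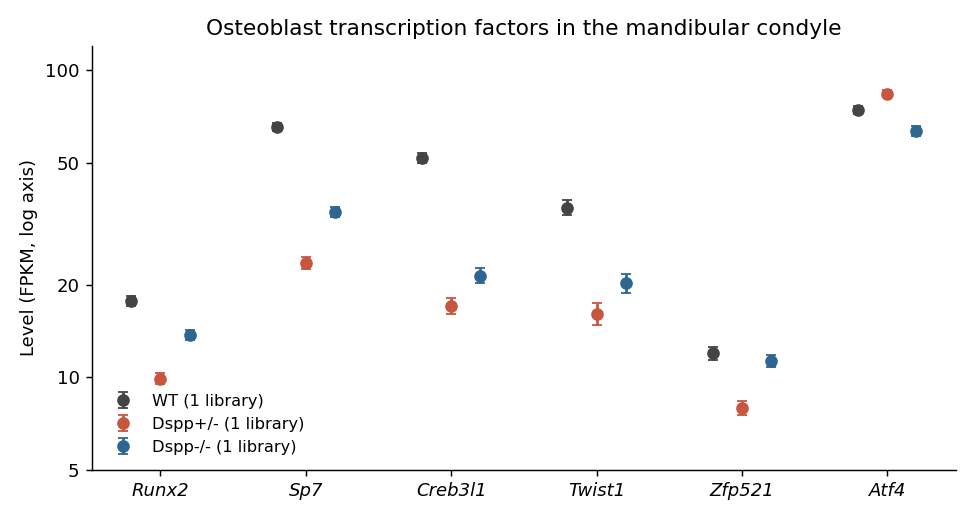
FPKM of the 6 factors in the WT, Dspp+/- and Dspp-/- libraries on a log axis, with 1 point per library and bars for the 95% counting interval. Sp7 stands at 65.4, 23.6 and 34.6 FPKM and Atf4 at 74.3, 83.9 and 63.4, and Runx2, Sp7, Creb3l1, Twist1 and Zfp521 all have their lowest point in the Dspp+/- library.

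Of the 6 factors, 5 had their highest level in WT and their lowest in Dspp+/-, with Dspp-/- between, and Atf4 did not. Counted on the scale of log2(FPKM + 1), 3 of the 6 factors were at least 2-fold lower in Dspp+/- than in WT, namely Creb3l1, Sp7 and Twist1, where 2.86% of all genes compared were. None of the 6 was at least 2-fold higher, where 4.88% of genes were. In Dspp-/-, 1 of the 6 was at least 2-fold lower than in WT, Creb3l1, against 1.37% of genes, and 0 were at least 2-fold higher, against 4.05%. Scaling to housekeeping genes brought Sp7 and Twist1 past the line there as well, to 3 of 6 against 4.15% of genes. Between the mutants, 0 of the 6 were at least 2-fold lower in Dspp+/- than in Dspp-/-, where 0.852% of genes were, and 0 were at least 2-fold higher, where 0.798% were. The median log2 ratio of the 6 factors was -0.94 in Dspp+/- against WT, beside 0.058 for all genes compared. In Dspp-/- against WT it was -0.57 beside 0.0070, and in Dspp+/- against Dspp-/- it was -0.37 beside 0.037. Both comparisons with WT use the same WT library, and the comparison of the mutants uses their libraries again.

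**Figure D2:**
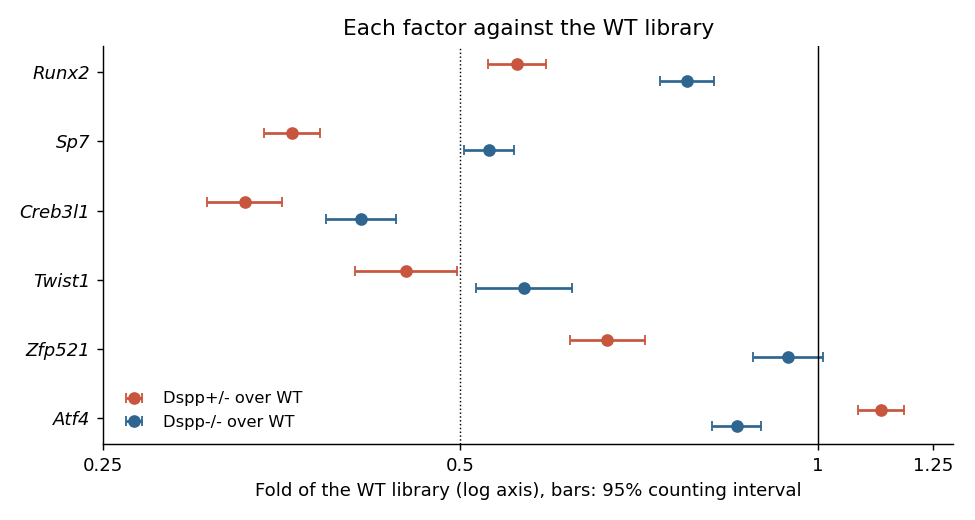
Fold of each factor in the Dspp+/- and Dspp-/- libraries relative to the WT library on a log axis, with 95% Clopper-Pearson intervals for counting error only, where the solid line is no difference and the dotted line a 2-fold lower level. Creb3l1 is at 0.329 and 0.412, while Zfp521 in Dspp-/- reaches across 1 and Atf4 lies on either side of it.

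Runx2 (ENSMUSG00000039153, chromosome 17, 44806874 to 45125684 on the minus strand in the deposited table, whose genome build is not named) had 17.7, 9.90 and 13.8 FPKM across WT, Dspp+/- and Dspp-/-. These values rest on 3172, 2065 and 2705 fragments over 8837 bases of exon. The level was highest in WT, lowest in Dspp+/- and in between in Dspp-/-, and no counting interval touched another. Relative to WT, Runx2 was at 0.558-fold in Dspp+/- (95% interval 0.528 to 0.590) and 0.776-fold in Dspp-/- (0.737 to 0.817). In Dspp+/- it was at 0.719-fold of Dspp-/- (0.679 to 0.762). Of all genes compared, 5.17% had as low or a lower log2 ratio in Dspp+/- and 19.3% in Dspp-/-. Counting over all transcripts cannot separate the long and short forms of RUNX2 that start at different promoters. Of its exon bases, 5.87% overlap a gene on the other strand, Runx2os1, and the library kit named in the labels was not stated to keep strand. Runx2os1 held 15, 9 and 6 fragments in WT, Dspp+/- and Dspp-/-.

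RUNX proteins bind DNA at sites with the core ACCACA, or TGTGGT on the other strand, and this core was looked for in the 250 bases before annotated transcript starts. Promoters were taken from RefSeq on GRCm38.p6, another build than the deposited table, with entries for Runx2, Atf4 and Twist1 among the 6 factors and for 7 of 9 bone matrix and mineral genes. The core was present in 14.0% of 32851 such promoters. It was found before Runx2 itself and before Bglap, Spp1 and Mmp13, which encode osteocalcin, osteopontin and a collagenase of bone and cartilage. These 4 windows of 30 bases are shown, 5′ to 3′ along the gene with the core in capitals, because they hold the same letters in the factor's own promoter and in 3 of the bone genes. The windows of Col1a2, Ibsp, Alpl and Phospho1, which were lower as well, do not hold the core, and neither does the window of a second Spp1 start.
Runx2, GRCm38.p6 chr17:44814690-44814719 on the minus strand, core beginning 80 bases before the start: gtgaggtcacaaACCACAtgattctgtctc
Bglap, GRCm38.p6 chr3:88384581-88384610 on the minus strand, core beginning 132 bases before the start: ccgcaatcacctACCACAgcatcctttggg
Spp1, GRCm38.p6 chr5:104434971-104435000 on the plus strand, core beginning 128 bases before the start: tttttttttttaACCACAaaaccagaggag
Mmp13, GRCm38.p6 chr9:7272384-7272413 on the plus strand, core beginning 118 bases before the start: attctgccacaaACCACActtaggaagaaa
In the Runx2 window the core overlaps an E-box, the site of basic helix-loop-helix factors such as TWIST1, which begins 78 bases before the start. A match of letters is a description and not a site shown to be used.

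Sp7 (ENSMUSG00000060284, chromosome 15, 102265041 to 102275617 on the minus strand in the deposited table) is the zinc finger factor that commits RUNX2-positive cells to the osteoblast. Behind its values of 65.4, 23.6 and 34.6 FPKM in WT, Dspp+/- and Dspp-/- were 4495, 1892 and 2613 fragments. Sp7 was at 0.361-fold of WT in Dspp+/- (95% interval 0.342 to 0.381) and at 0.529-fold in Dspp-/- (0.504 to 0.555), so its level in Dspp-/- lay close to the 2-fold line but above it. The Dspp+/- library held 0.682-fold of the Dspp-/- level (0.643 to 0.724). Among genes compared, 0.937% had as low a log2 ratio in Dspp+/- and 2.05% in Dspp-/-.

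Creb3l1 (ENSMUSG00000027230, chromosome 2, 91812673 to 91854847 on the minus strand in the deposited table) had the lowest ratio to WT of the 6 factors in both mutant libraries. Its level was 51.9 FPKM in the WT library, 17.1 in Dspp+/- and 21.4 in Dspp-/-, from 2733, 1049 and 1239 fragments. WT stood well above both mutants. The Dspp+/- level was 0.798-fold of the Dspp-/- level (95% interval 0.734 to 0.867). In Dspp+/- Creb3l1 was at 0.329-fold of WT (0.306 to 0.353) and in Dspp-/- at 0.412-fold (0.385 to 0.441). A log2 ratio as low as this was found for 0.660% of genes compared in Dspp+/- and for 0.476% in Dspp-/-.

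Twist1 (ENSMUSG00000035799, chromosome 12, 34007670 to 34009828 on the plus strand in the deposited table) is an inhibitor of early osteoblast differentiation, and it was lower together with the activators. It had 35.7, 16.1 and 20.2 FPKM across WT, Dspp+/- and Dspp-/-, from 1177, 618 and 732 fragments, the fewest of the 6 factors. WT was again the highest library and Dspp+/- the lowest. The fold of WT was 0.450 in Dspp+/- (95% interval 0.408 to 0.497) and 0.566 in Dspp-/- (0.515 to 0.621). The Dspp+/- level was 0.796-fold of the Dspp-/- level (0.714 to 0.887). The 250 bases before its start are shown with the one TGACG half-site of cAMP response elements, to which ATF4 and CREB3L1 type factors bind, in capitals as its other-strand form 96 bases before the start.
Twist1, GRCm38.p6 chr12:33957421-33957670 on the plus strand: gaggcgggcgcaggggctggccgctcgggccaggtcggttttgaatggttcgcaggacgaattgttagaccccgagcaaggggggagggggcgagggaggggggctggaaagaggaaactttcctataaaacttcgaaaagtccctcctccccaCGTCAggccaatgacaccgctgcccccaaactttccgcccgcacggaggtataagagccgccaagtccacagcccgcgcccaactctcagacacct
This half-site was present in 17.8% of promoters. The same window holds a GC box, GGGCGG or CCGCCC, the site of SP1-like zinc finger factors, 62 bases before the start, as did 32.7% of promoters at any place.

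Zfp521 (ENSMUSG00000024420, chromosome 18, 13820070 to 14105844 on the minus strand in the deposited table), a zinc finger protein that represses RUNX2 and binds early B cell factors, was the least abundant of the 6. Its level was 12.0 FPKM in the WT library, 7.95 in Dspp+/- and 11.3 in Dspp-/-, from 1702, 1320 and 1765 fragments. Only the Dspp+/- library stood apart. Zfp521 was at 0.665-fold of WT there (95% interval 0.618 to 0.715). In Dspp-/- it was at 0.943-fold, with an interval of 0.882 to 1.01 that includes 1, and its log2 ratio of -0.078 became 0.030 when mitochondrial, hemoglobin, immunoglobulin and muscle genes were left out of the scaling.

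Atf4 (ENSMUSG00000042406, chromosome 15, 80139385 to 80141742 on the plus strand in the deposited table) was the one factor on opposite sides of WT in the mutants. It had 74.3, 83.9 and 63.4 FPKM across WT, Dspp+/- and Dspp-/-, from 3544, 4672 and 3327 fragments. Here Dspp+/- was the highest library and Dspp-/- the lowest. Atf4 was at 1.13-fold of WT in Dspp+/- (95% interval 1.08 to 1.18), although scaling to housekeeping genes turned its log2 ratio from 0.17 to -0.072, and at 0.854-fold in Dspp-/- (0.814 to 0.896). Between the mutants it was at 1.32-fold in Dspp+/- (1.27 to 1.38), which stayed above 1 under every scaling tried. Neither difference from WT was large among all genes, of which 62.5% had as low or a lower ratio in Dspp+/- and 27.7% in Dspp-/-. As ATF4 is controlled largely at translation, its RNA does not give the level of the protein.

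The Atf4 promoter is shown with its 4 E-boxes, CANNTG, in capitals. An E-box also lies in the Runx2 window, and whether such sites bear on the level of Atf4 was not tested.
Atf4, GRCm38.p6 chr15:80254934-80255183 on the plus strand: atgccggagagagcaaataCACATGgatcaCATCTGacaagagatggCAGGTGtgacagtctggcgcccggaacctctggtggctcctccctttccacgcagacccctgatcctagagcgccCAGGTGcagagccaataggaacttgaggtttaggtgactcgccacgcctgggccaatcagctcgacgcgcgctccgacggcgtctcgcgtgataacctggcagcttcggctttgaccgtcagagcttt
At least 1 E-box was present in 66.2% of promoters and at least 4 in 3.84%. The RUNX core was not among the letters of the Atf4 or Twist1 window, and the Atf4 window also holds the cAMP response half-site 12 bases before the start.

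**Figure D3:**
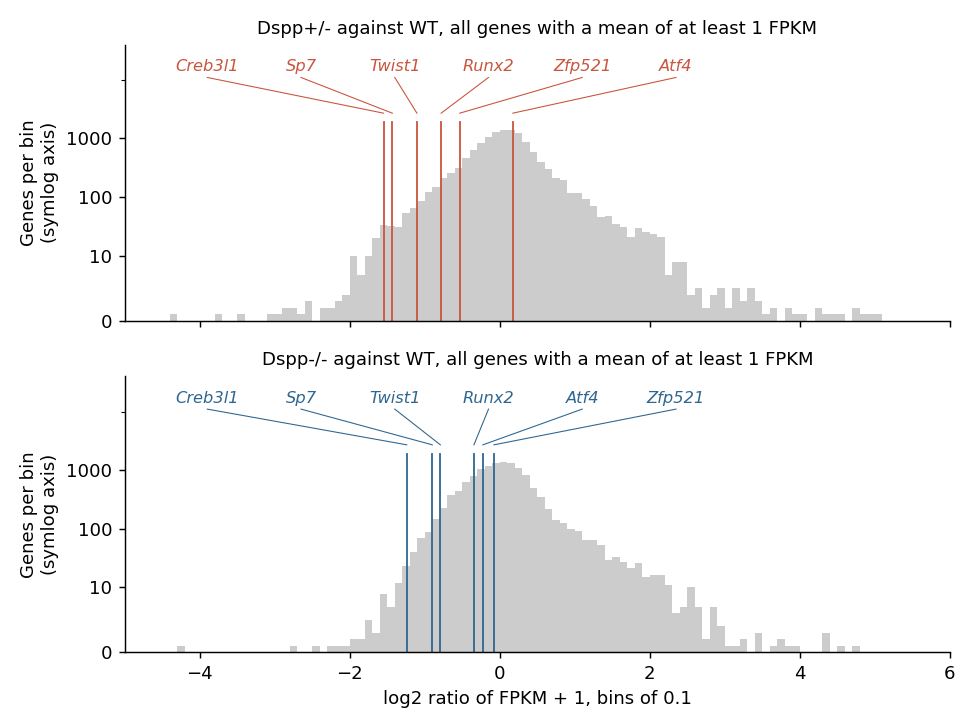
Number of genes in bins of 0.1 of the log2 ratio of FPKM + 1 on a symlog axis for Dspp+/- and for Dspp-/- against WT, with a line at each of the 6 factors. In Dspp+/-, 5 lines lie between -1.55 and -0.53, below the median of all genes at 0.058, and Atf4 lies at 0.17 in this scaling. In Dspp-/- the lines run from -1.24 for Creb3l1 to -0.078 for Zfp521.

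A ratio of 2 factors within a library does not depend on how libraries are scaled, so the 15 pairs of factors were compared this way, with an exact conditional interval for counting error. The factors did not keep their proportions between these single libraries. The change of the ratio from WT had an interval that left out 1 for 15 of 15 pairs in Dspp+/- and for 14 of 15 in Dspp-/-. Between the mutants the interval left out 1 for 9 of 15 pairs. The pairs share factors and are not independent of each other. The same share among pairs of other genes was not counted, so these counts are not shown to be particular to the factors.

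Runx2 per Sp7, the earlier factor over the later one, was 0.271 in the WT library, 0.420 in Dspp+/- and 0.398 in Dspp-/- as a ratio of FPKM. That is a 1.55-fold higher ratio in Dspp+/- (95% interval 1.43 to 1.67) and a 1.47-fold higher one in Dspp-/- (1.37 to 1.57). Both mutants stood above WT by like amounts, with a ratio of 1.05 between them (0.970 to 1.15). Runx2 per Zfp521, an activator over its repressor, was 1.48, 1.24 and 1.22 in WT, Dspp+/- and Dspp-/-. It was lower than WT by a fold of 0.839 in Dspp+/- (0.766 to 0.920) and of 0.822 in Dspp-/- (0.755 to 0.895). Runx2 per Twist1 lay the other way, with 0.496 for WT, 0.616 for Dspp+/- and 0.681 for Dspp-/-.

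Sp7 per Twist1 was 1.83, 1.47 and 1.71 across WT, Dspp+/- and Dspp-/-. This was the pair whose change in Dspp-/- had an interval that included 1, at 0.935-fold (0.841 to 1.04). Sp7 per Creb3l1 was 1.26, 1.38 and 1.62 in the same order, a change of 1.10-fold in Dspp+/- (1.00 to 1.20) and 1.28-fold in Dspp-/- (1.18 to 1.39). The widest shift in Dspp+/- was between Atf4 and Creb3l1, with 1.43 for WT, 4.92 for Dspp+/- and 2.96 for Dspp-/-. That ratio was 3.43-fold higher in Dspp+/- (3.16 to 3.74) and 2.07-fold higher in Dspp-/- (1.91 to 2.25). In Dspp-/- the widest was Zfp521 per Creb3l1, 2.29-fold higher than in WT (2.08 to 2.52). Sp7 per Atf4 was 0.880 in the WT library, 0.281 in Dspp+/- and 0.545 in Dspp-/-, and it was the pair with the lowest ratio between the mutants, at 0.516-fold (0.478 to 0.556).

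The genes that RUNX2 and SP7 are known to act on in bone were lower in both mutants, with lower medians than the factors. Of 9 such genes, 8 were at least 2-fold lower in Dspp+/- than in WT, against 2.86% of all genes compared. In Dspp-/- 2 were, Ibsp and Alpl, against 1.37%. The median log2 ratios were -1.60 in Dspp+/- and -0.80 in Dspp-/-. All 9 were below WT in both mutants under every scaling tried, while the count past 2-fold in Dspp-/- was 5 under housekeeping scaling and 1 under both scalings that leave out mitochondrial genes. Col1a2, the second chain of type I collagen, had 2780, 700 and 1496 FPKM across WT, Dspp+/- and Dspp-/-. Ibsp, bone sialoprotein, had 1643, 433 and 685 FPKM, and Alpl, the phosphatase that frees phosphate for mineral, had 203, 70.8 and 97.8. Osteopontin, Spp1, had 2474, 814 and 1661 FPKM, and Mmp13 had 649, 240 and 487. Osteocalcin was counted over the near-identical genes Bglap, at 1353, 386 and 778 FPKM, and Bglap2, at 679, 224 and 434, whose reads may be split wrongly between them. Phospho1, a phosphatase of matrix vesicles, was the exception to the 2-fold line in Dspp+/-, at 2.22, 1.44 and 1.04 FPKM.

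Set against Sp7 within each library, most of these genes separated the mutants, but Alpl did not. Col1a1 per Sp7 was 102 in the WT library, 72.9 in Dspp+/- and 104 in Dspp-/-, a change of 0.714-fold in Dspp+/- (95% interval 0.676 to 0.753) and of 1.02-fold in Dspp-/- (0.974 to 1.07). Alpl per Sp7 was 3.11, 3.00 and 2.83, with a change of 0.964-fold in Dspp+/- (0.907 to 1.02). Mmp13 per Sp7 was 9.93, 10.2 and 14.1, a change of 1.42-fold in Dspp-/- (1.35 to 1.49). Over the 9 genes, the ratio to Sp7 was lower than in WT beyond its counting interval for 6 and higher for 1 in Dspp+/-, and lower for 2 and higher for 4 in Dspp-/-. The 1 higher in Dspp+/- was Phospho1, at 1.80-fold (1.31 to 2.47). Between the mutants it was lower in Dspp+/- for 7 of 9 and higher for 1.

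Set against Runx2, the same genes were lower in both mutants. The ratio was lower than in WT beyond its interval for 8 of 9 genes in Dspp+/- and for 8 of 9 in Dspp-/-, and higher for 0 in either. Col1a1 per Runx2 was 376, 174 and 262 across WT, Dspp+/- and Dspp-/-, a change of 0.461-fold (0.436 to 0.488) and 0.697-fold (0.662 to 0.734). All ratios to 1 factor share that factor's fragments, so they move together with it.

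**Figure D4:**
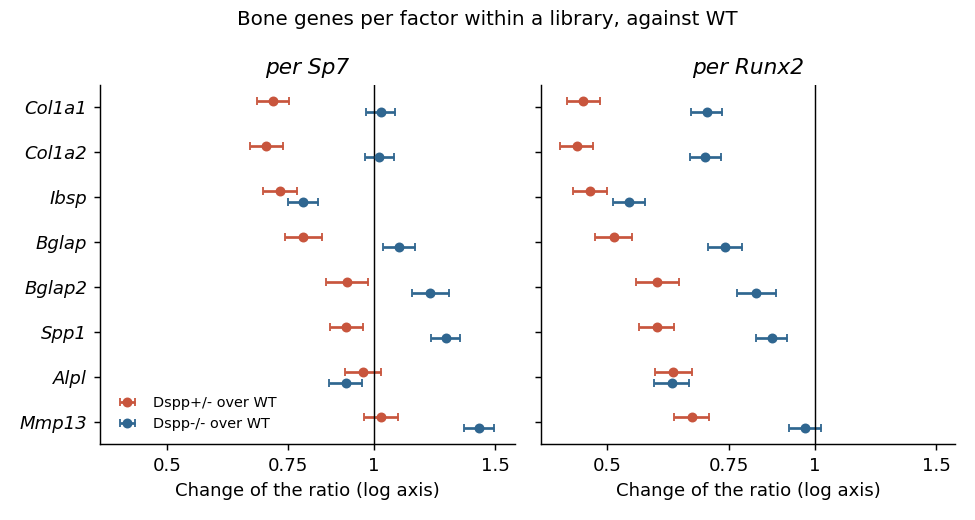
Change from WT of the ratio of 8 bone genes to Sp7 and to Runx2 within a library on a log axis, with 95% intervals for counting error and a line at no change. Phospho1, at 1.04 to 2.22 FPKM, is left out for its low level. Per Sp7 the Dspp-/- points lie around the line and most Dspp+/- points below it, from 0.698 for Col1a2, and per Runx2 all points lie below it except that the interval of Mmp13 in Dspp-/- reaches 1.02.

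Among the RUNX relatives, Runx3 lay nearest to Runx2 in its folds of WT, and Runx1 and Cbfb lay nearer to WT. Runx1, a factor of blood and cartilage cells, had 6.79 FPKM in the WT library, 5.82 in Dspp+/- and 6.79 in Dspp-/-. Runx3, active in cartilage, had 6.89, 4.11 and 5.14 FPKM, a fold of WT of 0.597 in Dspp+/- (95% interval 0.530 to 0.671) and 0.745 in Dspp-/- (0.666 to 0.834). Cbfb, the subunit that all RUNX proteins bind, had 38.2, 29.1 and 39.6 FPKM, so it was below WT in Dspp+/- and near it in Dspp-/-. None of the 3 reached a 2-fold difference, and their median log2 ratio was -0.38 in Dspp+/- and 0.0013 in Dspp-/-, which was -0.28 under housekeeping scaling.

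Among 20 other skeletal transcription factors and cofactors, 18 were compared, as Msx2 and Lef1 stayed under 1 FPKM. Of the 18, 3 were at least 2-fold lower in Dspp+/- and 0 higher, against 2.86% and 4.88% of all genes compared. In Dspp-/-, 1 was at least 2-fold lower and 0 higher, against 1.37% and 4.05%. Under housekeeping scaling 7 were lower in Dspp+/- and 2 in Dspp-/-, against 4.86% and 4.15% of genes. Chosen here after their values were seen, the 3 lower in Dspp+/- without this scaling were Dlx3, Hey1 and Dlx5. Dlx3 had 15.7, 4.74 and 6.41 FPKM across WT, Dspp+/- and Dspp-/-, Hey1 had 17.4, 7.67 and 12.6, and Dlx5 had 34.0, 15.6 and 21.0. Dlx3, a homeobox factor of bone and teeth, was the 1 gene also past 2-fold in Dspp-/- without this scaling. The most abundant of the list in WT were Cebpb, a leucine zipper factor, at 63.4, 85.9 and 51.5 FPKM, Wwtr1, the coactivator TAZ, at 36.7, 31.7 and 36.1, and Mef2c at 36.7, 42.5 and 43.0. The median log2 ratio of the 18 was -0.58 in Dspp+/- and -0.27 in Dspp-/-, which lies between that of the 6 factors and that of all genes.

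ATF4 partners and targets of the amino acid and stress response lay on both sides of WT in each mutant. Of 18 genes, 17 were compared. In Dspp+/-, 12 were above WT, with a median log2 ratio of 0.27, where 56.3% of all genes compared were higher. Under housekeeping scaling 9 were above, with a median of 0.052. In Dspp-/-, 12 were below WT, with a median of -0.22, where 49.3% of genes were lower. At least 2-fold, 2 were lower and 2 higher in Dspp+/-, against 2.86% and 4.88% of all genes compared. The lower ones were Ddit4, a brake on mTOR signalling, at 150 FPKM in the WT library, 49.8 in Dspp+/- and 43.0 in Dspp-/-, and Nupr1 at 35.4, 13.4 and 16.6. The higher ones, named after their values were seen, were Atf3 at 2.57, 6.31 and 5.76 FPKM and the amino acid transporter Slc7a5 at 3.33, 7.90 and 6.23, and neither reached 2-fold under housekeeping or median-ratio scaling. In Dspp-/-, 2 were at least 2-fold lower and 0 higher, against 1.37% and 4.05%, and the lower count ran from 1 to 3 over the scalings.

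Between the mutants the same 17 genes lay mostly on the side of Atf4. In Dspp+/-, 15 of 17 were above their Dspp-/- level under every scaling tried, with a median log2 ratio of 0.26, where 55.3% of all genes compared were higher. One of them passed 2-fold, Atf5, a relative of ATF4, at 104, 151 and 70.4 FPKM across WT, Dspp+/- and Dspp-/-. The kinases that raise or activate ATF4 showed no 2-fold difference. Eif2ak1, the heme-regulated kinase, had 6.81 FPKM in the WT library, 10.01 in Dspp+/- and 9.89 in Dspp-/-, while Eif2ak2 had 2.86, 3.60 and 4.34. Eif2ak3, the kinase PERK of the endoplasmic reticulum, had 7.41, 5.76 and 6.30, and Eif2ak4, which senses amino acid shortage, had 2.87, 2.73 and 3.04. Rps6ka3, the kinase RSK2 that phosphorylates ATF4 in osteoblasts, had 17.5, 15.5 and 18.8 FPKM. The median log2 ratio of the 5 kinases was -0.054 in Dspp+/- and 0.097 in Dspp-/-, and both signs turned under a scaling, to 0.0065 without mitochondrial, hemoglobin, immunoglobulin and muscle genes and to -0.17 with housekeeping genes.

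TWIST1 works as a dimer with E proteins, which ID proteins compete for. Tcf3 had 17.3, 19.1 and 15.3 FPKM across WT, Dspp+/- and Dspp-/-, Tcf4 had 8.86, 7.52 and 9.01, and Tcf12 had 7.49, 6.51 and 8.17, so the E protein genes stayed closer to WT than Twist1. Of the ID genes, Id3 was past 2-fold in Dspp+/- with 156 FPKM in the WT library, 71.6 in Dspp+/- and 79.0 in Dspp-/-. Id1 was past 2-fold in Dspp-/-, at 39.8, 28.8 and 18.1 FPKM, but not when mitochondrial, hemoglobin, immunoglobulin and muscle genes were left out of the scaling, and under housekeeping scaling 2 of the 7 genes were past it there. Id2 had 38.8, 29.1 and 31.0 FPKM and Id4 had 6.12, 3.10 and 4.27. Over the 7 genes compared, the median log2 ratio was -0.40 in Dspp+/- and -0.31 in Dspp-/-, and Twist2 stayed under 1 FPKM.

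The other genes of the CREB3L1 pathway were nearer to WT than Creb3l1. None of 9 reached a 2-fold difference in either mutant, apart from Sec24d in Dspp+/- under median-ratio and housekeeping scaling, and the median log2 ratio was -0.16 in Dspp+/- and 0.0058 in Dspp-/-, which was -0.31 under housekeeping scaling. The paralog Creb3l2 had 18.7, 13.0 and 15.2 FPKM across WT, Dspp+/- and Dspp-/-. Mbtps1 and Mbtps2, the proteases that release CREB3L1 from the membrane, had 16.5, 10.9 and 12.7 FPKM and 2.95, 2.53 and 3.57 FPKM. Sec24d, a coat protein of collagen export, had 23.7, 11.8 and 16.2 FPKM, and Sec23a had 22.6, 16.9 and 22.7. Per Creb3l1, Sec24d was 0.456 in the WT library, 0.694 in Dspp+/- and 0.759 in Dspp-/-. Col1a1 per Creb3l1 was 129, 101 and 169, a change of 0.783-fold in Dspp+/- (95% interval 0.729 to 0.840) and 1.31-fold in Dspp-/- (1.23 to 1.40). Xbp1 at 39.7, 42.2 and 41.0 FPKM, Hspa5, the chaperone BiP, at 58.9, 70.9 and 57.8, Atf6 at 9.51, 9.98 and 10.9 and Ern1 at 5.49, 6.19 and 6.03 are known from the unfolded protein response, and none differed by 2-fold.

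Around Zfp521, its paralog Zfp423 had 3.58, 3.58 and 3.85 FPKM across WT, Dspp+/- and Dspp-/-. Ebf1, a factor that ZFP521 binds and that also marks B cells, had 4.72, 6.71 and 7.48 FPKM, Ebf2 had 0.727, 1.11 and 1.31, and Ebf3 had 2.51, 2.98 and 2.73. Hdac3, the deacetylase through which ZFP521 represses RUNX2, had 10.7, 9.58 and 10.2 FPKM. None of the 5 reached 2-fold, and the median log2 ratio was 0.18 in Dspp+/- and 0.088 in Dspp-/-, which was -0.14 under housekeeping scaling.

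**Figure D5:**
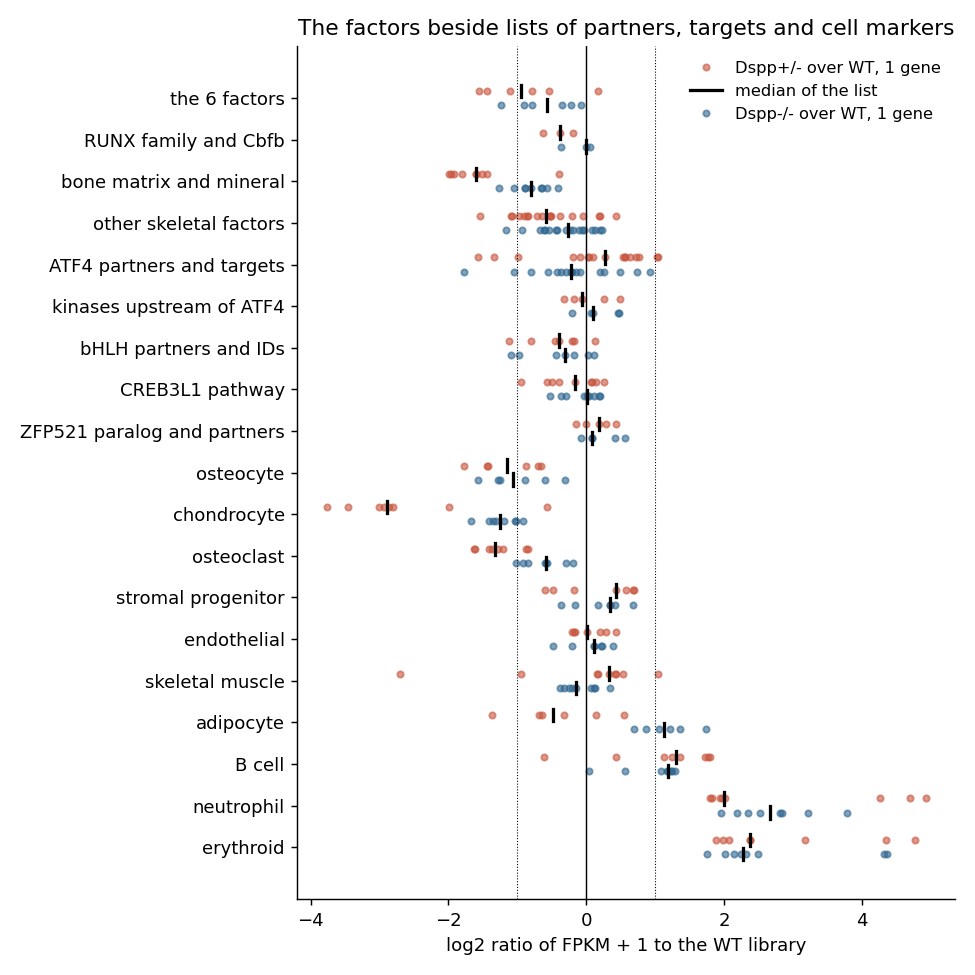
Log2 ratio of FPKM + 1 to the WT library for the 6 factors and for each list of related genes and cell markers, with 1 point per gene, a black bar at the median and dotted lines at 2-fold. The medians of the 6 factors are -0.94 in Dspp+/- and -0.57 in Dspp-/-, and osteocyte, chondrocyte and osteoclast markers lie on the same side of WT while neutrophil and erythroid markers lie on the other.

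Markers of several cell types differed between the libraries along with the factors, and in whole tissue fewer cells of a type and less RNA per cell cannot be told apart. For comparison, 2.86% of all genes compared were at least 2-fold lower and 4.88% higher in Dspp+/-, and 1.37% and 4.05% in Dspp-/-. Osteocyte markers, which belong to the last stage of the osteoblast lineage, summed to 924 FPKM in the WT library, 385 in Dspp+/- and 373 in Dspp-/-, and 3 of 6 were at least 2-fold lower in each mutant. Mepe had 369, 107 and 124 FPKM, Dmp1 had 191, 70.4 and 79.5, and Sost, an inhibitor of bone formation made by osteocytes, had 272, 167 and 111. Phex had 52.4, 18.8 and 34.4 FPKM, Irx5 had 30.03, 16.0 and 15.9, and Pdpn had 9.33, 5.55 and 7.37. Chondrocyte markers summed to 1616, 448 and 706 FPKM, with 7 of 8 at least 2-fold lower in each mutant. The count in Dspp-/- was 8 under housekeeping scaling, 6 under upper-quartile scaling and 5 under both scalings that leave out mitochondrial genes. Matn1, under 1 FPKM throughout, was at 0 in Dspp+/-. Col2a1, the collagen of cartilage, had 761, 94.3 and 308 FPKM, Comp had 462, 312 and 227, and Col10a1, of hypertrophic chondrocytes, had 246, 17.3 and 107. Osteoclast markers summed to 2258, 804 and 1317 FPKM, with 6 of 8 at least 2-fold lower in Dspp+/- and 1 in Dspp-/-, Ocstamp, a count that was 3 under housekeeping scaling and 0 under upper-quartile scaling and both scalings that leave out mitochondrial genes. These lists, like 5 of the factors, were at their lowest in Dspp+/- apart from the osteocyte sum.

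Marrow markers stood the other way. Neutrophil markers summed to 591, 2629 and 3480 FPKM across WT, Dspp+/- and Dspp-/-, and erythroid markers to 852, 3595 and 3456, and all 8 of each list were at least 2-fold higher in each mutant. B cell markers summed to 25.4, 77.4 and 61.2 FPKM, with 6 of 8 at least 2-fold higher in each, but 5 in Dspp+/- and 1 in Dspp-/- under housekeeping scaling. Adipocyte markers summed to 56.4, 50.3 and 129 FPKM, where 1 of 6, Cfd, was past 2-fold and lower in Dspp+/- while 4, Cidec, Cfd, Plin1 and Adipoq, were past 2-fold and higher in Dspp-/-, or 2 under housekeeping scaling.

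Other lists differed less. Stromal progenitor markers summed to 179, 212 and 208 FPKM, endothelial markers to 145, 159 and 153, and none of either list reached 2-fold. Among the stromal genes, Cxcl12 had 41.3, 67.5 and 55.6 FPKM, Kitl had 13.2, 21.9 and 21.9, and Ly6a had 49.2, 66.8 and 63.1, while Pdgfra had 21.8, 14.1 and 19.5, Pdgfrb had 41.3, 29.3 and 31.7, Lepr had 11.5, 10.1 and 14.8, and Grem1 had 1.10, 2.14 and 1.37. Skeletal muscle markers summed to 11257, 14949 and 12267 FPKM, with Myh4 at least 2-fold lower and Myh2 at least 2-fold higher in Dspp+/-, 1 of 9 each, while under median-ratio and housekeeping scaling 2 were lower and 0 higher. For the 10 housekeeping genes the median log2 ratio was 0.21 in Dspp+/- and 0.15 in Dspp-/-, the latter -0.17 after scaling to their own sum. How much these differences in makeup contribute to the levels of the 6 factors was not tested.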

How the data were processed

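Gene expression was measured in 3 poly(A) RNA libraries, 1 per genotype. Per the labels, libraries were made with the NEBNext Ultra kit, and the submitters' processing notes list FastQC 0.11.5, HISAT2 2.1.0 and StringTie 1.3.3b. The notes also list a differential expression tool, which was not used here. The only build they list is a human one, and the table's positions are not those of GRCm38, as 589 of 26652 genes shared start and end with GENCODE M21. The authors deposited 1 table of values with no unit named, read as FPKM because value times merged exon length gave whole fragments (within 0.05) for 26177 of 26652 genes in all 3 libraries. Triplicates are mentioned in the labels, but the table gives a single column per genotype, read here as 1 library.

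The fragments gave each library's depth and 95% Clopper-Pearson intervals on folds, exact conditional intervals on changes of ratios between factors, and log-normal intervals on bone gene ratios. All cover counting error only. Genes averaging at least 1 FPKM were compared as log2 ratios of FPKM + 1, which understates changes of low genes, and counted past 2-fold. The study's Kruskal-Wallis test cannot be run on single libraries.

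The members and the 19 gene lists were chosen with earlier results of these data known. A single gene of the lists is not reported here. Named were the 6 factors, all compared genes of lists of up to 9 (marker lists outside the osteoblast lineage are given by sums and counts), the 3 most abundant of longer lists with any gene 2-fold against the list's median, and the 3 genes nearest to each factor by the Euclidean distance of both log2 ratios to WT (mean of at least 5 FPKM). Alternatives were pseudocounts of 0.1 and 5, no filter or a mean of at least 5 FPKM, 4 scalings, 1.5-fold and 4-fold thresholds, recovered fragments for ratios, and housekeeping scaling, which was added after seeing the data. Motifs were searched on both strands. Scripts were tested on simulated data and ran in Python 3.11.15 with scipy 1.17.1, pandas 2.3.3 and numpy 2.4.6, and figures were drawn with matplotlib 3.10.9.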

Additional observations from a re-analysis of the deposited data

Results flagged for a closer look

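Of 78 genes looked at, the 6 factors and the genes of their pathways, 10 lay on opposite sides of WT in the mutants with both counting intervals leaving out 1. The share of all genes compared that did so was not counted, so the number is not shown to be particular to these pathways. The difference was not tested, as each genotype has 1 library. Atf4 was at 1.13-fold of WT in Dspp+/- and 0.854-fold in Dspp-/-. Its relative Atf5 was at 1.45-fold and 0.676-fold, and Trib3, a pseudokinase induced by ATF4, at 1.88-fold and 0.641-fold. Cebpb was at 1.35-fold and 0.813-fold, and the E protein gene Tcf3 at 1.10-fold and 0.883-fold.

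The other 5 were lower in Dspp+/- and higher in Dspp-/-. Snai2 was at 0.669-fold of WT in Dspp+/- and 1.16-fold in Dspp-/-, and Prrx1, a factor of limb and craniofacial mesenchyme, at 0.758-fold and 1.07-fold. Mbtps2 was at 0.856-fold and 1.21-fold, Tcf12 at 0.869-fold and 1.09-fold, and Rps6ka3 at 0.882-fold and 1.07-fold. Folds this near 1 can change side with the scaling. Under housekeeping scaling these 5 genes fell below WT in Dspp-/-, and Atf4 and Tcf3 fell below WT in Dspp+/-. All of them were then below WT in both mutants and no longer on opposite sides.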

How the results depend on the processing

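The median log2 ratio of the 6 factors was negative under all alternatives, from -1.17 to -0.78 in Dspp+/- against WT, from -0.87 to -0.46 in Dspp-/- against WT and from -0.42 to -0.29 between the mutants. It moved beyond counting error to -0.78 in Dspp+/- with a pseudocount of 5, to -1.17 in Dspp+/- and -0.87 in Dspp-/- with housekeeping scaling, and to -0.46 in Dspp-/- when mitochondrial, hemoglobin, immunoglobulin and muscle genes were left out of the scaling. The count of factors at least 2-fold lower in Dspp-/-, 1, became 3 under housekeeping scaling and 3 at 1.5-fold, where 8.21% of genes were called, and 0 at 4-fold. In Dspp+/- the count of 3 became 4 at 1.5-fold, where 8.95% of genes were called, and 0 at 4-fold, 2 with a pseudocount of 5, where Twist1 was at -0.95, and 4 under housekeeping scaling, where Runx2 was at -1.01. Atf4 in Dspp+/- turned to -0.072 under housekeeping scaling, and Zfp521 in Dspp-/- turned to 0.030 without mitochondrial, hemoglobin, immunoglobulin and muscle genes. The order of the factors by their ratio to WT was the same under every alternative. Ratios of Runx2 to Sp7 from recovered fragments were the same.

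Housekeeping scaling put the median of all genes at -0.14 in Dspp+/- and -0.25 in Dspp-/-, and turned the split of 373 genes lower and 636 higher in Dspp+/- into 633 and 424, and that of 179 and 527 in Dspp-/- into 540 and 331. In Dspp+/- a pseudocount of 0.1 gave 605 lower and 971 higher, and one of 5 gave 156 and 185. No paired analysis was possible because each genotype has 1 library. The spread between animals was not measured, so no alternative covers it.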

Other observations

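The genes nearest to each factor by both log2 ratios to WT, among 7132 others with a mean of at least 5 FPKM, were looked up as a description of 2 ratios that share the WT library. Creb3l1 had the fewest neighbours, with 2 genes within a distance of 0.1. Its nearest was Dlx3, the homeobox factor of the list of skeletal factors, at a distance of 0.071 with 15.7 FPKM in the WT library, 4.74 in Dspp+/- and 6.41 in Dspp-/-, followed by Col16a1, a fibril-associated collagen, at 0.089 and Cdr2l at 0.10. Sp7 had 8 genes within 0.1, and the nearest were C1qtnf1 at 0.029, Prkg2, a cGMP-dependent kinase, at 0.031 and Ckb, the brain-type creatine kinase, at 0.055, with Ckb at 124, 44.5 and 68.2 FPKM.

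Twist1 had 17 genes within 0.1, led by Ptprf at 0.0095, Mpnd at 0.013 and the scavenger receptor Scara3 at 0.058. Runx2 had 38, led by Sec22b, a vesicle fusion protein of the secretory pathway, at 0.019, Cgnl1 at 0.020 and Calu, a calcium-binding protein of the secretory pathway, at 0.022. Zfp521 had 46, led by Gpsm2 at 0.012, the calmodulin gene Calm2 at 0.017 and Enpp2, which encodes autotaxin, at 0.033. Atf4 had 180, led by Eif5a, a translation factor, at 0.0033, Aup1 at 0.012 and Akap8 at 0.016. These counts depend on how far a factor's ratios lie from those of most genes, so they largely restate its folds. The genes searched were not matched to the level of each factor.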
